A study of Mus musculus and Homo sapiens with 4 samples.

Results

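Cancer-testis antigens are proteins whose genes are active in male germ cells, are silent in most adult tissues and are switched on again in some tumours, where their peptides can be shown to T cells. Most of the families lie in clusters of near-identical copies on the X chromosome, and DNA methylation of their promoters is known to keep them silent in somatic cells. PRAME is the exception in position, a single gene on chromosome 22 that was first found in melanoma. The described entries are all those of the 2 human libraries with a gene symbol that starts with MAGEA, MAGEB, MAGEC, PAGE, GAGE, XAGE, SSX or CTAG, or that is PRAME. This rule took 63 of 25932 entries, with 68 distinct matching symbols.

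VCaP, a line of prostate cancer cells, was used at passages 5 to 6, and VCaP ERα, the same line made to overexpress ERα, at passages 4 to 5. Their total RNA was depleted of ribosomal RNA and sequenced with the strand kept. Each condition has 1 library, so no value has a replicate check, no test was made and no error can be given. The authors deposited RPKM values, in which reads are divided by the length of an entry and by the number of mapped reads, so levels of different entries can be set side by side. In bulk RNA a small number of cells with a transcript and a low level in every cell cannot be told apart.

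The library labelled VCaP went against its label. Of 7 prostate luminal genes, 4 reached 1 RPKM there and all 7 did in VCaP ERα, with medians of 2.11 and 208 RPKM. Of 5 genes typical of luminal breast cells, all 5 reached 1 RPKM in the library labelled VCaP, against 3 in VCaP ERα, with medians of 30.7 and 4.44 RPKM. ESR1, the gene of ERα and 1 of these 5, ran the other way with 15.7 RPKM in the former and 209 RPKM in VCaP ERα, the direction that the labels give. Differences between the libraries are therefore differences between the library labelled VCaP and VCaP ERα, and the condition and the origin of the cells cannot be told apart. The libraries also differed in how many entries were listed at 0, which was 8757 in the library labelled VCaP, against 3607 in VCaP ERα.

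The symbol rule also took 7 entries that do not belong to the antigen families named in the rule, and these held most of the expression. CTAGE1, CTAGE4 (2 entries), CTAGE5 and CTAGE6 match through the first letters that they share with CTAG1 and CTAG2. Whether a CTAGE gene is itself a cancer-testis antigen was not considered in setting them apart. SSX2IP encodes a centrosome protein named for binding SSX2, and the entry of SS18 carries the symbol SSX-HSTT because SS18, a subunit of the BAF chromatin remodelling complex, is the fusion partner of SSX genes in synovial sarcoma. The other 56 entries belong to 9 families, with 12 MAGEA, 8 MAGEB, 3 MAGEC, 4 GAGE, 6 PAGE, 9 XAGE, 10 SSX and 3 CTAG entries on the X chromosome and 1 PRAME entry. Below, "family entries" means these 56.

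A level of 1 RPKM was taken as expressed. In the library labelled VCaP 0 of the 56 family entries reached it, where 45.4% of all entries did. In VCaP ERα 1 of the 56 reached it, where 46.0% of all entries did. That entry was SSX3, a member of the SSX family of nuclear transcriptional repressors, with 0 RPKM in the library labelled VCaP, compared with 1.68 RPKM in VCaP ERα. By the symbol rule as a whole, 3 of 63 entries were expressed in the library labelled VCaP, against 4 of 63 in VCaP ERα, and CTAGE5, SSX2IP and SS18 were counted in both. At 3 RPKM 1 of the 63 entries remained in the library labelled VCaP (35.2% of all entries) and 2 remained in VCaP ERα (27.1% of all entries), and these were SS18 and, in VCaP ERα, SSX2IP. The cancer-testis families were thus almost wholly below the level of expression in both libraries, and their median was listed at 0 in the former and was 0.0217 RPKM in the latter.

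**Figure D1:**
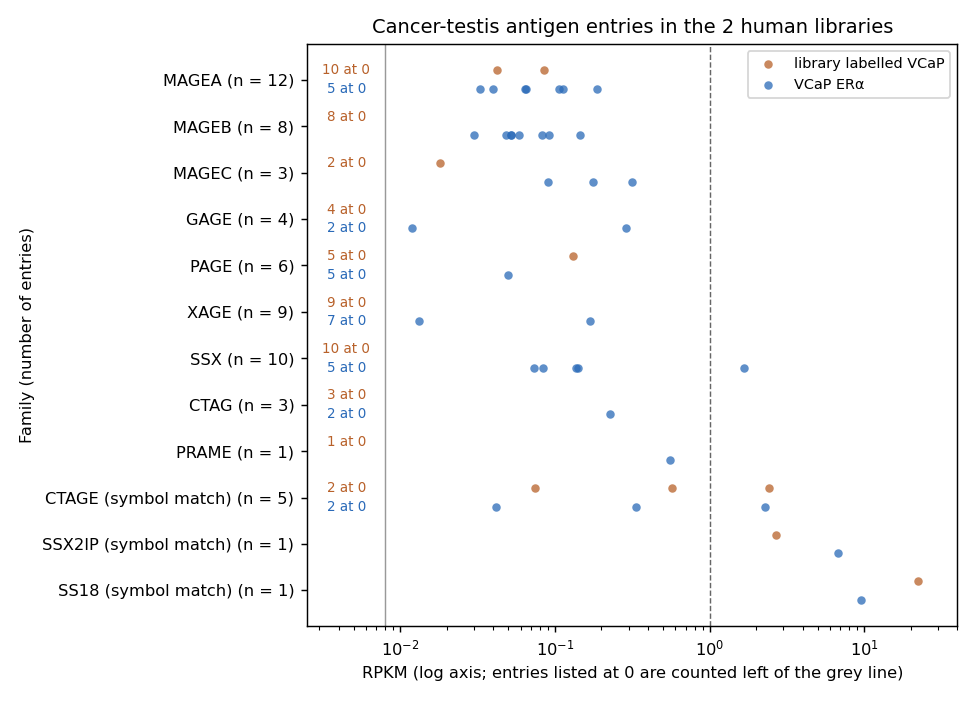
RPKM of each of the 63 entries on a log axis, by family, with 1 point per entry in VCaP ERα (blue) and in the library labelled VCaP (brown), entries listed at 0 given as a count at the left, and the dashed line at 1 RPKM. Of the family entries only SSX3 in VCaP ERα, at 1.68 RPKM, lies right of the line, while CTAGE5, SSX2IP and SS18, which match by symbol only, do so in both libraries.

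At any value above 0 the libraries looked less alike. In the library labelled VCaP 4 of the 56 family entries were above 0 (7.14%, against 66.2% of all entries), and in VCaP ERα 30 were (53.6%, against 86.1%). All 4 entries above 0 in the library labelled VCaP were also above 0 in VCaP ERα, and 26 entries were listed at 0 in both (46.4%, against 12.2% of all entries). Of the 52 family entries at 0 in the library labelled VCaP, 26 were above 0 in VCaP ERα, a share of 50.0% where it was 63.9% for all entries at 0 in that library. The gain of low values in VCaP ERα was thus seen across all entries, and the family entries did not take part in it more often than entries as a whole. They did so more often than the other X chromosome entries at 0 in the library labelled VCaP, of which 45.3% were above 0 in VCaP ERα.

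Olfactory receptor genes, which encode odorant receptors of the nose and are silent in most other tissues, were examined as a second set of mostly silent genes; the set was chosen after values had been seen. Of 377 olfactory receptor entries, 17 were above 0 in the library labelled VCaP (4.51%), against 121 in VCaP ERα (32.1%). Of the 360 at 0 in the former, 31.1% were above 0 in the latter, a lower share than the 50.0% of the family entries. The family entries and the olfactory receptors thus both moved from a small to a larger share above 0. The median of the values above 0 in VCaP ERα was 0.0870 RPKM for the family entries and 0.117 RPKM for the olfactory receptors. At 0.3 RPKM the shares in VCaP ERα were 5.36% (3 of 56) and 4.24% (16 of 377), where that of all entries was 67.1%, and at 1 RPKM they were 1.79% (1 of 56) and 0.265% (1 of 377). In the library labelled VCaP 0 entries of either set reached 0.3 RPKM, where 53.2% of all entries did. The highest olfactory receptor, OR2V2, had 1.44 RPKM in VCaP ERα and was listed at 0 in the library labelled VCaP. SSX3 therefore stood above all 377 olfactory receptor entries in VCaP ERα and PRAME below 3 of them, whereas each other family entry lay below at least 15. Length was not matched between the sets, and 347 of the 377 olfactory receptor entries span under 1300 bp. The chance of a value above 0 and the smallest possible value both depend on length. These shares, medians and ranks are therefore not like for like. What the low values in VCaP ERα come from was not tested.

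**Figure D2:**
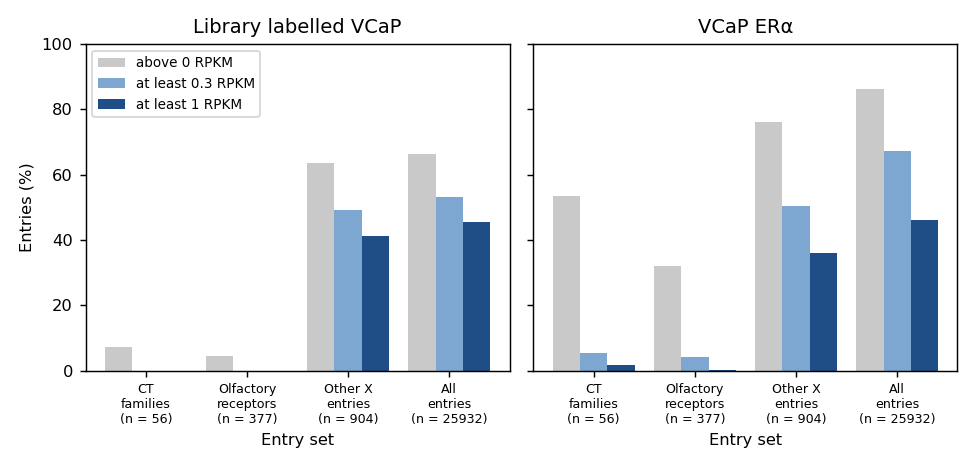
Share of entries (%) above 0, at 0.3 RPKM or more and at 1 RPKM or more, for the library labelled VCaP at the left and VCaP ERα at the right, for the 56 family entries, 377 olfactory receptor entries, 904 other entries on the X chromosome and all 25932 entries. The family entries and the olfactory receptors gain values above 0 in VCaP ERα (53.6% and 32.1%) but stay near 0% at 1 RPKM, unlike the other X entries (36.1%).

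Other entries on the X chromosome were far more often expressed than the family entries, though less often than entries as a whole. Of the 904 entries on that chromosome outside the families, 41.3% reached 1 RPKM in the library labelled VCaP, against 36.1% in VCaP ERα. The shares of all entries were 45.4% and 46.0%. Of the 114 such entries within 250 kb of a family entry, 49.1% and 35.1% did. Genes that flank the clusters were therefore expressed about as often as other genes of the chromosome, while the clusters between them were not.

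The MAGE genes of type I (MAGEA, MAGEB and MAGEC) encode proteins with a MAGE homology domain that bind RING ubiquitin ligases and alter their activity. MAGEA is the family at the end of the long arm of the X chromosome from which several vaccine antigens were taken. Of its 12 entries, 2 were above 0 in the library labelled VCaP, MAGEA3 with 0.0844 RPKM and MAGEA11, known as a coregulator of the androgen receptor, with 0.0423 RPKM. In VCaP ERα 7 were above 0, and MAGEA12 was the highest with 0.187 RPKM. MAGEA11 had 0.113 RPKM and MAGEA3 0.0645 RPKM there. MAGEA4, MAGEA6, MAGEA9, MAGEA10 and 1 of the 2 MAGEA2 entries were listed at 0 in both libraries. No MAGEA entry came near 1 RPKM in either library.

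MAGEB, on the short arm of the X chromosome, was the largest family with every entry above 0 in VCaP ERα. All 8 were listed at 0 in the library labelled VCaP, and of all entries at 0 there 63.9% were above 0 in VCaP ERα. All 8 were above 0 in VCaP ERα, between 0.0302 RPKM (MAGEB10) and 0.144 RPKM (MAGEB1). This range lies within that of the olfactory receptors above 0. The spans of MAGEB1 (30171769 to 30180076) and MAGEB4 (30170090 to 30172229) overlap in the coordinates of the files, so the same reads could be counted in both.

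MAGEC1 and MAGEC2, which are antigens of myeloma and melanoma, lie beside MAGEC3 on the long arm. In VCaP ERα MAGEC1 had 0.316 RPKM, MAGEC2, a partner of the ligase TRIM28, had 0.176 RPKM, and MAGEC3 had 0.0903 RPKM. In the library labelled VCaP MAGEC1 and MAGEC2 were listed at 0 and MAGEC3 had 0.0181 RPKM. MAGEC1 was the highest MAGE entry of type I in either library and was exceeded by 15 of the 377 olfactory receptor entries.

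GAGE, PAGE and XAGE genes encode small related proteins of unstructured sequence. The entry that combines 16 GAGE symbols over 49060586 to 49257905 of the X chromosome had 0 RPKM in the library labelled VCaP, compared with 0.0119 RPKM in VCaP ERα. GAGE10, which has an entry of its own that overlaps the lower end of this span, had 0 and 0.289 RPKM, and the 2 entries of GAGE12I and GAGE1 were listed at 0 in both. Of the 6 PAGE entries, PAGE5 was the only one above 0, with 0.131 RPKM in the library labelled VCaP, compared with 0.0498 RPKM in VCaP ERα. PAGE5 and MAGEA3 were the only family entries with a higher value in the library labelled VCaP, against 28 with a higher value in VCaP ERα; of all entries 41.2% were higher in the library labelled VCaP, against 46.6% in VCaP ERα. PAGE4, known as a stress-response protein of the diseased prostate, was listed at 0 in both libraries.

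All 9 XAGE entries were listed at 0 in the library labelled VCaP. In VCaP ERα XAGE5 had 0.169 RPKM and XAGE3 had 0.0132 RPKM, and the 5 XAGE1D and 2 XAGE2 entries were at 0. CTAG1A and CTAG1B, the paired copies that encode the vaccine antigen NY-ESO-1, were listed at 0 in both libraries. Their relative CTAG2, which encodes LAGE-1, had 0 and 0.228 RPKM.

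The SSX family was the one with the widest spread. Its 10 entries were all listed at 0 in the library labelled VCaP. SSX3 had 1.68 RPKM in VCaP ERα, while SSX1 had 0.141 RPKM, SSX5 0.137 RPKM, SSX9 0.0838 RPKM and SSX6 0.0732 RPKM. SSX4, SSX4B, SSX7 and the 2 SSX2 entries were listed at 0 in both. SSX3 was the single SSX entry that stood clear of the others. It was higher than 63.6% of all entries in VCaP ERα, and 265 of the 959 entries on the X chromosome were higher.

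SSX3 lies on the short arm of the X chromosome (48090807 to 48101086), between SSX9 and SSX4. Within 250 kb of it lie 6 other SSX entries and 1 entry of SPACA5, a sperm acrosome gene, which was listed at 0 in both libraries. On the side away from the cluster, EBP, an enzyme of cholesterol synthesis, had 26.3 RPKM in the library labelled VCaP, compared with 39.8 RPKM in VCaP ERα. RBM3, a cold-induced RNA-binding protein, had 57.8 and 22.2 RPKM, and FTSJ1, an RNA methyltransferase, had 8.63 and 4.26 RPKM. The entry nearest to the cluster on that side, SLC38A5, an amino acid transporter, had 0.0605 and 0 RPKM. Of the 7 entries there, 6 reached 1 RPKM in the library labelled VCaP, against 4 in VCaP ERα, and PORCN (1.10 and 0.261 RPKM) and TBC1D25 (2.12 and 0.60 RPKM) did so only in the former, whereas SSX3 did so only in the latter.

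PRAME encodes a substrate receptor of a CUL2 ubiquitin ligase that represses retinoic acid receptor signalling. It had 0 RPKM in the library labelled VCaP, compared with 0.553 RPKM in VCaP ERα, where it was higher than 42.4% of all entries. Of the 7 other entries within 250 kb, 0 reached 1 RPKM in either library. One of them, the long abParts entry of antibody gene segments (20715572 to 21595082), spans the whole of PRAME (21220123 to 21231696), so the same reads could be counted in both, and it had 0.492 and 0.507 RPKM. BC040190 starts just beyond PRAME and had 0 and 0.283 RPKM, and the zinc finger gene ZNF280B had 0.0508 and 0.874 RPKM. The level of PRAME in VCaP ERα was thus below that of ZNF280B and above those of the other entries within 250 kb.

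The comparison of the conditions used the log2 ratio of RPKM + 1 in VCaP ERα over RPKM + 1 in the library labelled VCaP, with a threshold of 2 in either direction. None of the 63 entries passed it, where 2.27% of all entries were above 2 and 6.56% below -2. The largest values were 1.42 for SSX3 and 0.63 for PRAME among the family entries. After centring on the median of the entries expressed in both libraries, SSX3 reached 2.01, just past the threshold. Centring adds 0.59 to every ratio, also to entries listed at 0 in both libraries. The share of all entries past the threshold after centring was not computed. A value of 1 added to levels this low limits what the ratio can reach: with 0.1 added instead, SSX3, PRAME and MAGEC1 were above 2, as were 16.3% of all entries, and 0 of the 63 were below -2, as were 11.4% of all entries. Because the family entries concerned were listed at 0 in the library labelled VCaP, no fold is given for them.

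Among the entries that match by symbol only, SS18 had 22.2 RPKM in the library labelled VCaP, compared with 9.58 RPKM in VCaP ERα (log2 ratio -1.13). SSX2IP had 2.67 and 6.73 RPKM, a log2 ratio of 1.07. CTAGE5, which acts in the export of large cargo from the endoplasmic reticulum, had 2.42 and 2.30 RPKM, a log2 ratio of -0.05. These 3 genes were expressed in both libraries, and none of them is an SSX or CTAG antigen. CTAGE1 had 0.573 and 0.335 RPKM, and its value in the library labelled VCaP was above that of every family entry there (0.131 RPKM at most). In that library alone 1 of the CTAGE4 copies had 0.0740 RPKM, the other was at 0 in both, and CTAGE6 had 0.0418 RPKM in VCaP ERα alone.

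Near-identical copies can share reads, and the files do not say how reads that match several copies were counted. Of the 13 family entries whose symbol field stands on more than 1 entry (XAGE1D, XAGE2, SSX2, MAGEA2 and GAGE12I with GAGE1), 12 had the value 0 in both libraries, as had 14 of the 43 others. Over all entries 56.5% of those with a repeated symbol field were listed at 0 in both libraries (1002 of 1775), against 8.94% of those with a field of their own (2159 of 24157). Entries with repeated symbols were thus more often at 0 in the families and in the files as a whole. Of copies named by different symbols, chosen after their values were seen, CTAG1A and CTAG1B, SSX4 and SSX4B, and PAGE2 and PAGE2B were all at 0, whereas of MAGEA3 and MAGEA6 the former was above 0 in both libraries. A value of 0 for a copied gene therefore does not show that its transcript was absent, and the loss of reads between copies was not tested.

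**Figure D3:**
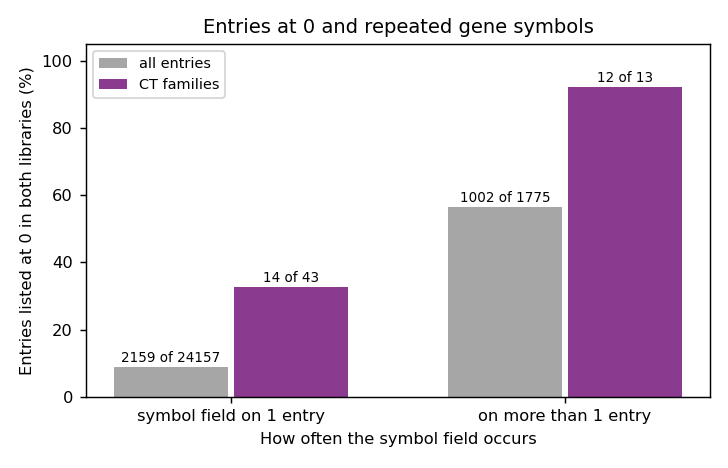
Share of entries listed at 0 in both libraries (%), for entries whose symbol field stands on 1 entry and on more than 1, over all entries (grey) and over the 56 family entries (purple), with the counts above the bars. In both sets the entries with a repeated symbol are more often at 0: 56.5% against 8.94% over all entries, and 12 of 13 against 14 of 43 in the families.

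Relatives and partners of the antigens that are not restricted to germ cells were also examined. The counts for them and for the further lists stand against 45.4% of all entries at 1 RPKM in the library labelled VCaP, 46.0% in VCaP ERα, 2.27% above the log2 ratio of 2 and 6.56% below -2. Their log2 ratios are read against a general shift, since the median over the 9754 entries expressed in both libraries was -0.59. Centred on this median, only RARG and TPTE of the genes named below stay under -2, and DNMT3L joins NDN, MAGEH1, SUZ12 and TDRD1 above 2. MAGE genes of type II are expressed in many adult tissues, and of 11 such entries 5 reached 1 RPKM in the library labelled VCaP, against 6 in VCaP ERα, with 2 above the log2 ratio of 2 and 0 below -2. The shares at 1 RPKM are near those of all entries. MAGED2, which acts in salt reabsorption by the kidney, had 74.1 and 86.0 RPKM. MAGED1, a binding partner of the p75 neurotrophin receptor, had 61.4 RPKM in the library labelled VCaP, compared with 15.2 RPKM in VCaP ERα. Both are on the X chromosome, as is MAGEH1, which had 7.91 and 41.1 RPKM (log2 ratio 2.24). NDN, an imprinted gene of chromosome 15, was listed at 0 in the library labelled VCaP and had 8.73 RPKM in VCaP ERα. MAGEF1 (36.3 and 12.9 RPKM) and NDNL2 (10.6 and 9.61 RPKM), a subunit of the SMC5/6 complex, were expressed in both. In its higher library each of these 6 genes exceeded MAGEC1, the highest type I entry. MAGEL2, with 0 and 0.448 RPKM, also exceeded it in VCaP ERα but was below 1 RPKM in both libraries. MAGED4, on 2 copied entries, was listed at 0 in both libraries, and MAGEE1, MAGEE2 and TRO were below 1 RPKM in both.

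The ubiquitin ligases that MAGE proteins bind were present in both libraries, with 5 of 6 genes at 1 RPKM or more in each. TRIM28, the ligase and corepressor bound by MAGEC2, had 71.4 and 17.1 RPKM, and its log2 ratio lay just below the threshold of -2. NSMCE1 had 43.2 and 10.5 RPKM, while LNX1 (8.93 and 10.5 RPKM), PJA1 (6.16 and 7.04 RPKM) and TRIM27 (14.7 and 14.6 RPKM) differed little. TRIM31 was below 1 RPKM in both, with 0.359 and 0.422 RPKM. Thus 5 of the 6 ligases reached 1 RPKM in each library, where no type I MAGE entry did. The list was not split by the type of MAGE protein that each ligase binds.

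Of 10 genes of the PRAME complex and its partners, 9 reached 1 RPKM in each library, with 1 above the log2 ratio of 2 and 3 below -2. The retinoic acid receptors, whose signalling PRAME represses, were not alike. RARG had 37.5 RPKM in the library labelled VCaP, compared with 1.29 RPKM in VCaP ERα, and RARA had 7.47 and 1.02 RPKM, while RARB was low in both with 0.0392 and 0.139 RPKM. EZH2, the histone methyltransferase that PRAME binds, had 8.52 and 1.30 RPKM. Its complex partner SUZ12 went the other way with 2.35 and 16.9 RPKM. RBX1, the RING subunit of the ligase, had 19.2 and 48.7 RPKM, and the elongin TCEB1 had 36.4 and 44.1 RPKM. CUL2 itself had 7.61 RPKM in the library labelled VCaP, compared with 7.62 RPKM in VCaP ERα.

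A list of DNA methylation genes was examined because promoter methylation is known to silence these families. It also holds the histone enzymes EHMT1, EHMT2 and HDAC1. Of its 14 genes, 12 were lower in VCaP ERα, where 41.2% of all entries were lower. EHMT1 (log2 ratio -1.18), EHMT2 (-1.47) and HDAC1 (-0.49) were among the 12. After centring 8 of the 14 were lower. Of the 14 genes 12 reached 1 RPKM in each library, 0 were above the log2 ratio of 2 and 2 were below -2, and the median log2 ratio was -0.82. After centring the list's median was -0.23, and after quantile normalization it was -0.39. DNMT1, the maintenance methyltransferase, had 11.9 and 1.69 RPKM. DNMT3A, which methylates DNA afresh, had 9.61 and 2.38 RPKM, and TET2, which oxidizes methylcytosine, had 31.8 and 5.48 RPKM. DNMT3B was low in both with 1.60 and 0.933 RPKM. The germ cell cofactor DNMT3L, listed at 0 in the library labelled VCaP, had 1.73 RPKM in VCaP ERα, and TET1 had 0.613 and 2.60 RPKM. Whether these levels go with the low values of the antigen genes was not tested.

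Other X-linked cancer-testis genes were, as the families, almost all below 1 RPKM. Of 16 genes found, 1 reached 1 RPKM in each library. That gene was LAGE3, a relative of CTAG1 and CTAG2 that is expressed in all tissues as a part of the KEOPS complex, with 25.8 RPKM in the library labelled VCaP, compared with 8.58 RPKM in VCaP ERα. The other 15 genes found were below 1 RPKM in both libraries, and 10 further symbols of the list, 6 of them CT45A genes, were matched to no entry and not analysed here. Above 0 were 6 of the 16 in each library, so the families' gain of values above 0 in VCaP ERα was not seen here. In the library labelled VCaP, SPANXC (0.272 RPKM), PLAC1 (0.250 RPKM) and DDX53 (0.138 RPKM) exceeded every family entry, and the rest of the 15 did not. PRAME-like genes of chromosome 1 were listed at 0 on all 24 entries in the library labelled VCaP and were above 0 on 12 in VCaP ERα. Of all entries at 0 in the former, 63.9% were above 0 in the latter. PRAMEF12 was the highest of the PRAME-like genes in VCaP ERα with 0.782 RPKM. This exceeds PRAME itself.

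Off the X chromosome the cancer-testis genes were mixed. Of 23 genes 11 reached 1 RPKM in the library labelled VCaP, against 10 in VCaP ERα, with 1 above the log2 ratio of 2 and 2 below -2, and several of them, such as TTK, PBK and ATAD2, are genes of dividing cells. The shares at 1 RPKM are again near those of all entries. TPTE, a testis phosphatase relative on chromosome 21 whose entry (9928614 to 10061300) also carries BAGE2, an antigen gene of the B melanoma antigen family, had 17.4 RPKM in the library labelled VCaP, compared with 0.00568 RPKM in VCaP ERα. Reads of TPTE and BAGE2 are therefore not told apart, and TPTE also has a close paralog with which it could share reads. DDX43, an RNA helicase also known as HAGE, had 1.97 and 0.0601 RPKM, and SPAG9, a scaffold of JNK signalling expressed in many tissues, had 26.5 and 5.34 RPKM.

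TDRD1, a tudor protein of the piRNA pathway in germ cells, had 3.21 RPKM in the library labelled VCaP, compared with 26.4 RPKM in VCaP ERα (log2 ratio 2.71). ACRBP, a protein of the sperm acrosome, had 0.152 and 1.42 RPKM, and SPA17, a sperm surface protein, had 1.97 and 3.62 RPKM. Each library thus expressed a few germ cell genes above every entry of the X-linked families. Among them were the entry of TPTE and BAGE2, DDX43, TDRD1 and SPA17 in the library labelled VCaP, and TDRD1 and SPA17 in VCaP ERα. Several other genes of the list off the X chromosome were below 1 RPKM in both libraries. SYCP1, HORMAD1 and MAEL were listed at 0 in both, while BRDT had 0 and 0.00608 RPKM and PIWIL2 had 0.0231 and 0.0834 RPKM. TDRD6 had 0 and 0.153 RPKM, and TEX15 had 0 and 0.314 RPKM. Of 8 germ cell markers 0 reached 1 RPKM in either library, and their summed level was 0.129 and 1.14 RPKM. SYCP3, of the synaptonemal complex, made up the former sum with 0.129 RPKM and was listed at 0 in VCaP ERα. PRM1, a sperm protamine, had 0 and 0.848 RPKM, which is most of the latter sum and above PRAME. The PRM1 entry is short (11282194 to 11282693), so a few reads could give this value. DAZL had 0 and 0.0332 RPKM and DDX4 had 0 and 0.0214 RPKM.

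**Figure D4:**
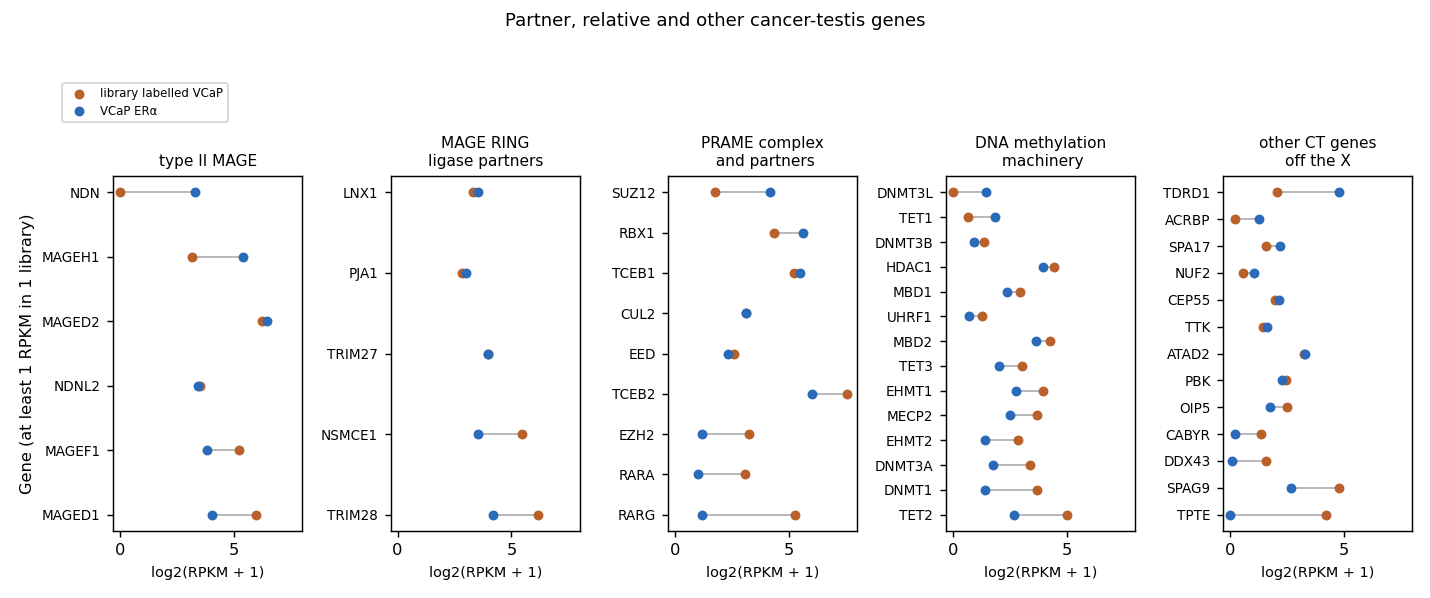
Levels as log2(RPKM + 1) of the genes of 5 lists that reached 1 RPKM in either library, with the library labelled VCaP in brown, VCaP ERα in blue and a grey line joining the values of a gene. MAGED2, TRIM27 and CUL2 sit at nearly the same level in both libraries, while NDN and TDRD1 are higher in VCaP ERα and RARG and TPTE are higher in the library labelled VCaP.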

How the data were processed

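RNA-seq libraries of VCaP and VCaP ERα cells were analysed (1 each, grouped by the sample labels); the 2 mouse fibroblast libraries of the series were not used here. The authors deposited RPKM values per known-gene entry, with no normalization between libraries stated. CASAVA 1.8 and the builds hg18 and mm10 are named in the submitters' processing notes; the aligner, the counting and its use of strand are not given in the sources used here. Coordinates are those of the files. The number of mapped reads is unknown, so no interval or detection limit was computed.

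Symbols were split at each bar and matched to the rule. Log2 ratios of RPKM + 1 were computed on all 25932 entries, with a threshold of 2 as in the study. Levels of 1 RPKM or more were called expressed. Further genes came from lists of relatives, partners and markers, a gene on several entries being taken at its highest mean; from each list the genes named were those at 1 RPKM or more with the 3 highest and 3 lowest log2 ratios, and of the families the highest entry in each library. Others are named after their values were seen. The members and lists were chosen with earlier results of these data known.

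As a guide to depth, RPKM multiplied by the span in kb was examined in 347 olfactory receptor entries under 1300 bp. In the library labelled VCaP the commonest product was 0.146 (5 of 11 entries above 0), and each other product, such as 0.051 and 0.063, occurred once. In VCaP ERα the commonest were 0.095 (21 of 105), 0.111 (20) and 0.189 (11). CTAGE6 had 0.111 in VCaP ERα. The CTAGE4 copy above 0 had 0.194 in the library labelled VCaP, which differs from the commonest product there. Exon lengths of the other members were not used. Python 3.11.15, numpy 2.4.6, pandas 2.3.3, scipy 1.17.1 and matplotlib 3.10.9 were used.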

Additional observations from a re-analysis of the deposited data

How the results depend on the processing

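With 1 library per condition no replicate could be left out, and a log2 value was taken as moved at a difference of 0.58 and a count at 1.5 times. No paired analysis was possible because each condition has 1 library. Of the 63 entries, 3 reached 1 RPKM in the library labelled VCaP, against 4 in VCaP ERα. At 3 RPKM these counts were 1 and 2, and at 0.3 RPKM they were 4 and 7. Without CTAGE and SSX2IP they were 1 and 2, and without SS18 as well, an alternative chosen after seeing the data, they were 0 and 1. The number of entries above a log2 ratio of 2 was 0, or 3 with a pseudocount of 0.1 and 1 (SSX3) after centring on the median of expressed entries; below -2 it stayed 0 under every alternative run. Centring moved every median by 0.59: to 0.59 for the 63 entries, 0.76 for type II MAGE, 0.62 for MAGE ligase partners, 0.47 for PRAME partners, -0.23 for DNA methylation genes, 0.59 and 0.64 for other cancer-testis genes on and off the X chromosome, 0.61 for PRAME-like genes, 0.63 for germ cell markers, 6.31 for prostate luminal and -4.35 for luminal breast genes, the last also -6.95 with a pseudocount of 0.1. Centring changed the sign for PRAME partners. Quantile normalization changed it for them (0.15), type II MAGE (0.17 to -0.03), cancer-testis genes off the X chromosome (0.05 to -0.02), PRAME-like genes (0.02 to -0.02) and germ cell markers (0.04 to -0.01). Of 18 entries named from the symbol rule, 6 changed sign or left 0 on centring and 3 after quantile normalization. The unknown depth and the sharing of reads between copies limit every value near 0.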
